A study of Mus musculus with 6 samples.

Results

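The genes that coat lipid droplets and break down their fat were compared between FLExDUX4 and wild-type (WT) mouse muscle. They are 10 of the 52550 mouse genes in the deposited table. The coats were Plin1, Plin2, Plin3, Plin4, Plin5, Cidea and Cidec, and the lipases were Pnpla2, Lipe and Mgll, each found by its symbol on a row with a mouse Ensembl identifier. All 10 had counts in both genotypes. Plin1, Plin4, Cidea and Cidec were grouped as adipocyte-type coats and Plin2, Plin3 and Plin5 as muscle-type coats. Plin4 is made in muscle fibers as well as in fat cells, so its place in this grouping was varied.

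Quadriceps RNA of 3 FLExDUX4 and 3 WT mice, all male and 13 weeks old by the labels, was sequenced with QuantSeq, which reads the 3′ end of polyadenylated RNA. The methods of the study describe triceps of younger mice instead. FLExDUX4 mice were hemizygous for a human DUX4 transgene at the Rosa26 locus that lies inverted between lox sites and leaks at a low level without Cre, so its expression is not restricted to muscle fibers. No treatment is named for either group. DUX4 was not analysed here, since the reads were aligned to the mouse genome and to spike-in sequences.

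A lipid droplet is a core of triglyceride and cholesteryl ester under a single layer of phospholipid. The perilipins (Plin genes) and the CIDE proteins (Cidea, Cidec) sit on that surface and control how far lipases reach the core. Triglyceride is then split in sequence by adipose triglyceride lipase (Pnpla2), hormone-sensitive lipase (Lipe) and monoacylglycerol lipase (Mgll). White fat cells hold a single large droplet coated by perilipin 1, whereas muscle fibers hold small droplets close to mitochondria, where perilipin 5 is found.

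The columns of single libraries carry no label of a genotype and were left aside. Each gene therefore had 1 count per genotype, summed by the authors over its mice, out of 13110125 counts on genes for FLExDUX4 and 18367364 for WT mice. The totals were scaled by TMM, and levels are given as CPM, the count in a library scaled to 1000000 counts. QuantSeq counts 3′ ends, so the levels of different genes were compared without dividing by length. Intervals are 95% and cover counting error only. No test across mice was run here, since it would need those columns, and a single mouse could decide any of these ratios.

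Plin4, Plin5 and Plin3 lie on the same strand of chromosome 17 of GRCm38. Plin4 spans 56100591 to 56109803 and Plin5 spans 56111601 to 56117596, which leaves 1797 bases between them. Plin3 lies farther along, with a deposited start at 56278962. Plin1 (79720218 to 79732903), Pnpla2 (141455198 to 141460743) and Lipe (25379527 to 25398710) are on chromosome 7. Cidec (113424634 to 113435760) and Mgll (88724412 to 88828360) are on chromosome 6 and Plin2 (86648386 to 86670060) is on chromosome 4. All 10 are protein-coding. Lipe lies wholly within an antisense gene, 4732471J01Rik, which had 1 count in FLExDUX4 and 17 in WT mice. Mgll overlaps 3 gene models that the annotation types as TEC on its own strand, Gm44005 (30 and 44 counts), Gm43999 (6 and 3) and Gm44001 (10 and 23), so reads could be split between them and Mgll. It also overlaps Gm26588 and Gm43937 on the opposite strand, with at most 3 counts in either genotype, as Cidea does B430212C06Rik with at most 1. Plin4 shares 17 bases with Hdgfl2 on the opposite strand. Whether the counting used strand is not given in the sources used here.

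RefSeq promoters on GRCm38.p6 were matched for 9 of the 10 genes, with 13 start sites in all, and the 250 bases before each start were searched on both strands. A CCAAT box (CCAAT) was in the window of 4 genes, Plin2, Plin3, Plin4 and Plin5, and in 33.8% of all 32851 promoters. A TATA box (TATAA) was found for Plin4 and Plin5, and in 22.8% of all promoters. The nuclear receptor hexamer AGGTCA was found for Plin2 and Plin5, and in 14.02% of all promoters. The FOXO core GTAAACA (3.17% of all promoters) and the E-box CACGTG (6.02%) were found for Lipe and Mgll, and AGAACA, the glucocorticoid receptor hexamer (16.1%), for Mgll. The windows of Plin4 and Plin2, the genes with the highest ratios below, and of Plin5, the neighbor of Plin4, are shown 5′ to 3′ with these motifs in capitals. In both Plin4 and Plin5 the TATAA lies close to the start, at -32 and -27.
Plin4 (chr17:56109783-56110032, minus strand): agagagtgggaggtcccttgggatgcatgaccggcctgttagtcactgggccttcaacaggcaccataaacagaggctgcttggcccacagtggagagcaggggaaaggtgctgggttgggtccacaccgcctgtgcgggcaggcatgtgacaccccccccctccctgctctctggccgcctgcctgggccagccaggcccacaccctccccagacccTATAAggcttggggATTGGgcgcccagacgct
Plin5 (chr17:56117549-56117798, minus strand): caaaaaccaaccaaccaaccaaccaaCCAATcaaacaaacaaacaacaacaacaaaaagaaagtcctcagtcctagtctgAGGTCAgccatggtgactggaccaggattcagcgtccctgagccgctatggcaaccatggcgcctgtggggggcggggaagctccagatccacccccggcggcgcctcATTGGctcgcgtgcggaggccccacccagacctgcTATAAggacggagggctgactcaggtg
Plin2 (chr4:86670060-86670309, minus strand): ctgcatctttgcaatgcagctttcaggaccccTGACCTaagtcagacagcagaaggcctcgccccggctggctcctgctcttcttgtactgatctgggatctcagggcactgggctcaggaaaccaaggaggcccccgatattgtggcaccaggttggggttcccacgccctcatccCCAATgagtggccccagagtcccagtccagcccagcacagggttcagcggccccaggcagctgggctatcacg

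To determine which droplet genes muscle expresses most, the levels were ranked within each genotype. In WT muscle Pnpla2 had the highest level, 123 CPM, and Plin4 followed with 109 CPM. Mgll had 52.4 CPM, Plin3 36.6 CPM and Lipe 24.7 CPM. Plin5, the coat of oxidative muscle, had only 12.2 CPM, next to Plin2 with 11.7 CPM. Cidec and Plin1, both coats of the large droplet of fat cells, had 9.27 and 8.08 CPM, and Cidea, a coat of brown fat, had 0.808 CPM. Plin5, Plin2, Cidec and Plin1 stood so close that the counting intervals of each neighboring pair overlapped.

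In FLExDUX4 muscle the first places were exchanged, with Plin4 at 179.8 CPM and Pnpla2 at 165 CPM. The counting intervals of these 2 genes did not overlap in either genotype. Mgll, Plin3 and Lipe kept their places at 57.9, 49.4 and 33.1 CPM. Plin2 stood above Plin5 here (18.2 and 14.7 CPM) and Plin1 above Cidec (10.7 and 10.6 CPM), but within each of these pairs the intervals overlapped. Among the 13396 genes compared, the level of Plin4 stood at percentile 94.1 in WT and 96.6 in FLExDUX4 muscle, and that of Cidea at 7.44 and 1.70.

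**Figure D1:**
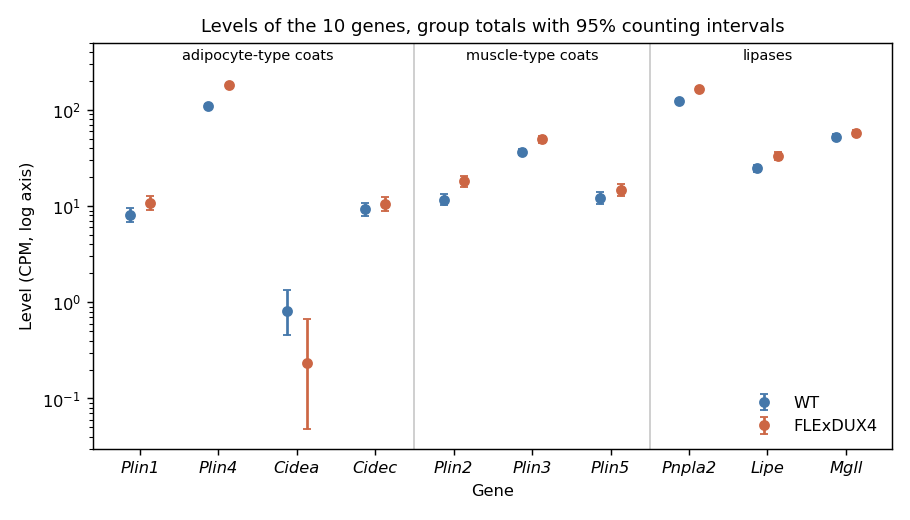
Levels of the 10 genes in CPM on a log axis, from the group totals of WT (blue) and FLExDUX4 (orange) mice, with bars for the 95% counting interval. Plin4 and Pnpla2 lie above 100 CPM in both genotypes, Cidea lies under 1 CPM, and on this TMM scale each gene except Cidea is higher in FLExDUX4 (6 of 10 with spike-in scaling).

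Together the 10 genes held 7007 counts in FLExDUX4 and 7205 in WT mice, or 0.0534% and 0.0392% of the counts on genes. After scaling, 9 of the 10 were higher in FLExDUX4 muscle, where 49.9% of all genes compared were higher. Their median log2 ratio was 0.41, against -0.0010 for all genes compared. The counting interval lay above 0 for 7 members (Plin1, Plin2, Plin3, Plin4, Pnpla2, Lipe and Mgll), a call that 20.5% of all genes compared received. It lay below 0 for no member, against 20.6% of all genes. Counting intervals are narrower at higher counts, and all members except Cidea had at least 100 counts in each total. These shares of all genes are therefore not matched for depth. Mgll passed narrowly, with a lower bound of 0.0035, and its call was lost with upper quartile scaling and with TMM over other gene sets. Scaling to the totals on genes changed these calls to 6 above 0 (18.4% of all genes), without Mgll, and 1 below 0 (23.1%), which was Cidea. Scaling to the spike-in RNAs left 3 above 0 (Plin2, Plin4 and Pnpla2, against 7.59% of all genes) and 1 below 0 (Cidea, against 47.1%).

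Only Plin4 and Plin2 were at least 1.5 times higher, which held for 13.2% of all genes compared. Against all genes the number of members past this fold was close to the background, but that background includes genes with few counts. Few well-counted genes reached this fold, 3.79% of the 6698 genes that had 100 or more counts in each total. All members except Cidea are among these 6698. Cidea was the only member at least 1.5 times lower, as were 13.5% of all genes compared and 1.27% of those with at least 100 counts in each total. Spike-in RNAs took 1.65% of the FLExDUX4 and 1.40% of the WT counts, and scaling to them instead moved every log2 ratio by -0.28. On that scale 6 of the 10 members were higher, as were 25.2% of all genes compared, and no member was 1.5 times higher, against 7.82% of all genes compared.

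**Figure D2:**
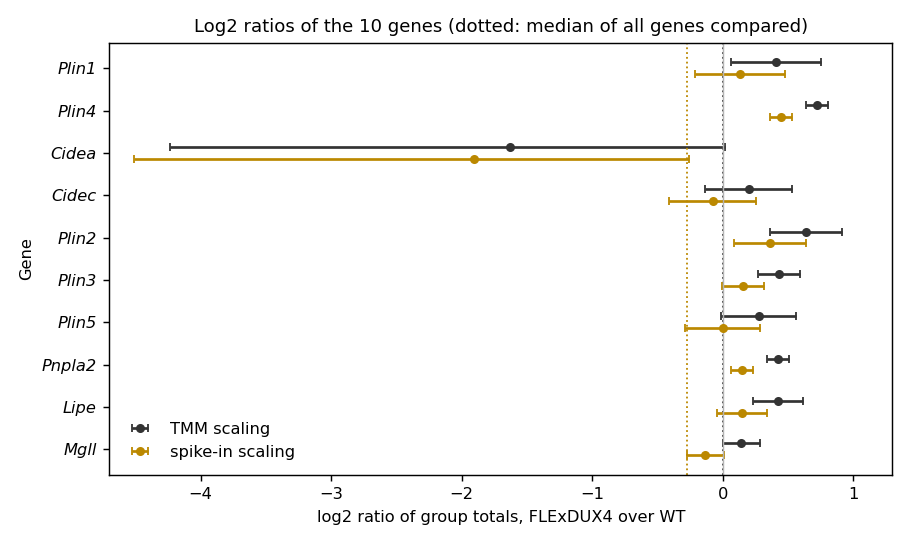
Log2 ratio of the group totals, FLExDUX4 over WT, for each gene, with 95% counting intervals, under TMM scaling (black) and spike-in scaling (yellow). Dotted lines mark the median of all genes compared, -0.0010 and -0.28. Plin4 is highest at 0.72 and 0.44, Mgll, Cidec and, by a small margin, Plin5 lie on opposite sides of 0 under the 2 scalings, and only Cidea lies below the median of all genes under both.

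Among the adipocyte-type coats, Plin4 had the highest ratio. Perilipin 4 coats small, newly formed droplets through a long stretch of repeats. It had 2333 counts in FLExDUX4 and 2025 in WT mice, so its count was larger in the genotype with fewer counts in all. The log2 ratio was 0.72 (interval 0.63 to 0.81), which is 1.65 times. Of the 1119 genes with at least 1000 counts in each total, 5 had a higher ratio than Plin4.

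Perilipin 1 is the main gatekeeper of lipolysis in fat cells, where it holds back the activator of Pnpla2 until it is phosphorylated. Plin1 had 139 counts in FLExDUX4 and 150 in WT mice, a log2 ratio of 0.41 (interval 0.06 to 0.75). Cidec, which moves lipid from smaller to larger droplets, had 138 and 172 counts and a ratio of 0.20 (interval -0.14 to 0.53). The counting interval of Cidec holds 0, so no difference was detectable at this depth. Cidea had 3 counts in FLExDUX4 and 15 in WT mice, a ratio of -1.63 with a wide interval (-4.24 to 0.02), and 3 counts are at the floor used here. The 4 adipocyte-type coats thus ranged from -1.63 to 0.72, with a median of 0.30.

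Of the 3 muscle-type coats, Plin2 and Plin3 had a counting interval above 0 and Plin5 did not. Perilipin 2, found on droplets of nearly every tissue, is degraded when it is not bound to lipid. Plin2 had 236 counts in FLExDUX4 and 217 in WT mice, a log2 ratio of 0.64 (interval 0.37 to 0.91), the second highest of the 10. Of the genes with at least 100 counts in each total, 2.76% had a higher ratio than Plin2. Perilipin 3 moves between the cytosol and newly forming droplets. Plin3 had 641 and 680 counts, a ratio of 0.43 (interval 0.27 to 0.59). Plin5 had 191 and 226 counts and a ratio of 0.27 (interval -0.01 to 0.56). Scaling to the spike-ins brought it to -0.0017. Within the libraries, Plin4 was 12.2 times as abundant as its neighbor Plin5 in FLExDUX4 and 8.96 times in WT muscle, and the interval of this change (log2 0.15 to 0.75) lay above 0.

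The lipases of the first steps had like ratios, and that of Mgll was lower. Pnpla2, which releases the first fatty acid from triglyceride, had 2146 counts in FLExDUX4 and 2289 in WT mice, a log2 ratio of 0.42 (interval 0.34 to 0.51). Lipe, which acts mainly on diacylglycerol, had 429 and 458 counts and the same ratio to this precision (0.42, interval 0.23 to 0.62). The count of Pnpla2 was 5.002 times that of Lipe in FLExDUX4 and 4.998 times in WT muscle, and the interval of the change in this ratio ran from -0.21 to 0.21. Mgll had 751 and 973 counts and a ratio of 0.14 (interval 0.0035 to 0.28), which became -0.13 with spike-in scaling. Pnpla2 over Mgll was 2.86 in FLExDUX4 and 2.35 in WT muscle, a log2 change of 0.28 (interval 0.12 to 0.44) that does not depend on scaling. Mgll also serves in the breakdown of the endocannabinoid 2-arachidonoylglycerol, so its RNA is not tied to droplets alone.

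To compare the makeup of the droplet coat without any scaling, each coat was taken as a share of the counts of all 7. Plin4 held 63.4% (interval 61.8 to 64.9) of the coat counts in FLExDUX4 and 58.1% (interval 56.4 to 59.8) in WT muscle. Plin3 came next, with 17.4% (interval 16.2 to 18.7) in FLExDUX4 and 19.5% (interval 18.2 to 20.9) in WT muscle. Plin2, Plin5, Cidec and Plin1 each held between 3.75% and 6.48% in either genotype, and their intervals overlapped between genotypes. Cidea held 0.0815% and 0.430%, and its intervals (0.0168 to 0.238 and 0.241 to 0.709) did not overlap, on 3 and 15 counts. Plin4 was the only other coat whose intervals did not overlap. Among the lipases, Pnpla2 held 64.5% (interval 62.9 to 66.1) in FLExDUX4 and 61.5% (interval 59.9 to 63.1) in WT muscle, and Mgll held 22.6% (interval 21.2 to 24.0) and 26.2% (interval 24.7 to 27.6). The coats together had 1.11 counts per lipase count in FLExDUX4 and 0.937 in WT muscle, a log2 change of 0.24 (interval 0.14 to 0.34). Without Plin4 the same ratio was 0.405 and 0.392, a change of 0.05 (interval -0.08 to 0.17).

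**Figure D3:**
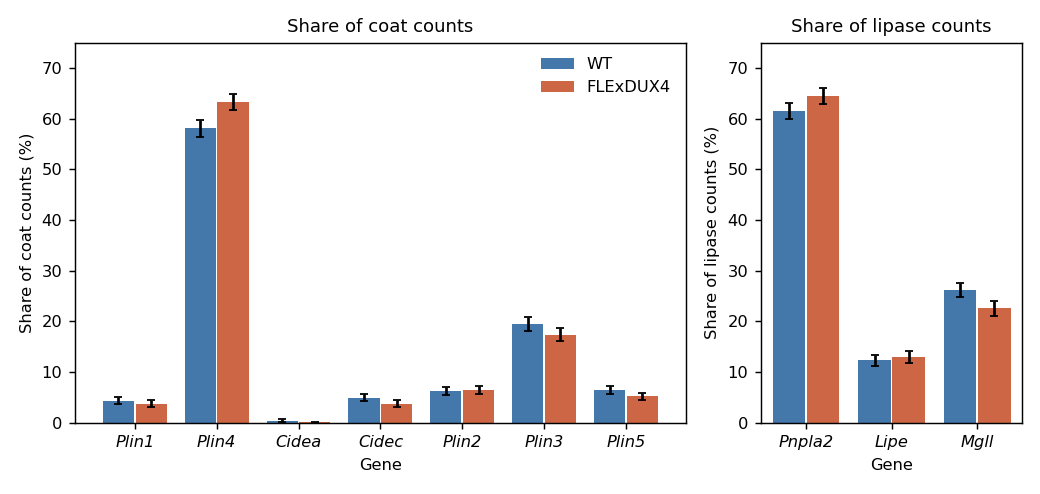
Share (%) of each coat in the counts of the 7 coats (left) and of each lipase in those of the 3 lipases (right), in WT (blue) and FLExDUX4 (orange) group totals, with 95% Clopper-Pearson intervals. Plin4 holds 58.1% of coat counts in WT and 63.4% in FLExDUX4, and Mgll holds 26.2% and 22.6% of lipase counts.

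The adipocyte-type coats were then set against the muscle-type coats. They had 2613 counts against 1068 in FLExDUX4 and 2362 against 1123 in WT muscle, which are ratios of 2.45 and 2.10. The log2 change was 0.22 (interval 0.07 to 0.37), toward the adipocyte type. This direction turned with the place given to Plin4. With Plin4 counted among the muscle-type coats, the ratios were 0.0823 and 0.107 and the change was -0.38 (interval -0.62 to -0.13), toward the muscle type. With Plin4 left out, they were 0.262 and 0.300 and the change was -0.19 (interval -0.46 to 0.07). With Plin3 left out instead, the change was 0.20 with an interval that held 0 (-0.01 to 0.41). The median log2 ratios of the types also had the opposite order, 0.30 for the adipocyte and 0.43 for the muscle type.

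**Figure D4:**
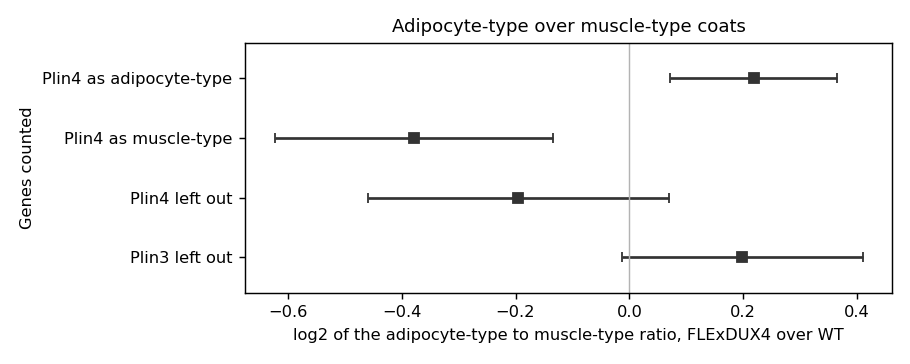
Log2 of the ratio of adipocyte-type to muscle-type coat counts, FLExDUX4 over WT, with exact 95% counting intervals, for 4 ways of counting the genes. The value is 0.22 with Plin4 as an adipocyte-type coat, -0.38 with Plin4 as a muscle-type coat, -0.19 without Plin4 and 0.20 without Plin3, and the last 2 intervals hold 0.

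Each member was also set against each other within the libraries, 45 pairs in all, and for 20 pairs the counting interval of the change lay clear of 0. Cidea was in 9 of these 20, on its few counts. Plin4 was higher relative to 7 members, with Plin1 (log2 0.31, interval -0.04 to 0.67) and Plin2 (0.08, interval -0.20 to 0.37) as the exceptions. Of the 28 pairs without Plin4 and Cidea, 5 had an interval clear of 0. Mgll was lower relative to 5 members. Leaving Cidea aside, Plin4 and Mgll had the highest and the lowest ratio, and most of the others could not be told apart at this depth.

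Of the direct regulators of Pnpla2 named here, G0s2 was higher like Pnpla2, and the TMM intervals of Abhd5 and Hilpda held 0. G0s2, an inhibitor that binds Pnpla2, had 419 counts in FLExDUX4 and 335 in WT mice, a log2 ratio of 0.84 (interval 0.63 to 1.05). Scaling to the spike-ins gave 0.56. Abhd5 (also called CGI-58), the coactivator of Pnpla2 that perilipins hold, had 311 and 443 counts and a ratio of 0.01 (interval -0.21 to 0.22). Hilpda, another inhibitor, had 50 and 89 counts and a ratio of -0.31 (interval -0.85 to 0.20). Per count of Pnpla2 there were 0.195 counts of G0s2 in FLExDUX4 and 0.146 in WT muscle, and 0.145 and 0.194 of Abhd5. Hilpda went the opposite way to G0s2, with 0.0233 and 0.0389 counts per count of Pnpla2, a log2 change of -0.74 (interval -1.28 to -0.22). The balance of G0s2 over Abhd5 was 1.35 in FLExDUX4 and 0.756 in WT muscle, a log2 change of 0.83 (interval 0.53 to 1.14) that does not depend on scaling. Among the 11 genes compared of the 12 listed as partners and inhibitors of lipolysis, 6 were higher and 5 lower, with a median of 0.01, against 49.9% of all genes compared that were higher. G0s2 was the only gene at least 1.5 times higher (13.2% of all genes). Pnpla3, with 13 and 47 counts, was the only gene at least 1.5 times lower (-1.30, interval -2.35 to -0.43, against 13.5% of all genes). With spike-in scaling 3 of the 11 were higher and 8 lower, where 25.2% of all genes were higher. None was then at least 1.5 times higher (7.82% of all genes) and 4 were at least 1.5 times lower (23.7%).

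Genes that build droplets were taken as the next group. Of 15 genes for droplet assembly and other droplet proteins, 14 were compared and none was 1.5 times higher or lower (13.2% and 13.5% of all genes compared). The interval lay above 0 for none of them (20.5% of all genes) and below 0 for 3, which is close to the 20.6% of all genes. Their log2 ratios ran from -0.32 for Aup1 to 0.21 for Ldah, with a median of 0.02. With spike-in scaling all 14 were below 0, as were 10020 of the 13396 genes compared. The list median was then -0.26, close to the -0.28 of all genes compared. Fitm1 and Fitm2, which promote droplet budding from the endoplasmic reticulum, had ratios of -0.08 (interval -0.16 to -0.01) and 0.03 (interval -0.12 to 0.18). Bscl2 (seipin), which shapes the site of budding, had 0.19 (interval -0.08 to 0.45).

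Among 15 genes for triglyceride synthesis, 13 were compared, 8 higher and 5 lower, with a median log2 ratio of 0.21, where 49.9% of all genes were higher. With spike-in scaling 6 were higher and 7 lower, where 25.2% of all genes were higher. The list median was then -0.07, against -0.28 for all genes compared. Gpam, a mitochondrial acyltransferase of the first step, was the only gene of these at least 1.5 times higher (13.2% of all genes), with 73 and 24 counts and a ratio of 2.10 (interval 1.44 to 2.85). For the last step, Dgat2 had a ratio of 0.21 (interval 0.01 to 0.41) and Dgat1, the lowest of the list, -0.28 (interval -0.66 to 0.09). Scaling to the spike-ins turned Dgat2 to -0.066. Among 12 other lipases that act on neutral lipid, 11 were compared, 8 higher and 3 lower, with a median of 0.23. Of their intervals, 3 lay above 0 (20.5% of all genes) and 2 below 0 (20.6%). With spike-in scaling 5 were higher and 6 lower (25.2% of all genes were higher), and the median was -0.05. No interval then lay above 0 (7.59% of all genes) and 3 lay below 0 (47.1%). The highest was Ces1f, on 16 and 10 counts (1.17, with 0 inside its interval), and the lowest was again Pnpla3. Without counts for either genotype were Lipg, Mogat2 and Cideb, the CIDE gene of liver.

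**Figure D5:**
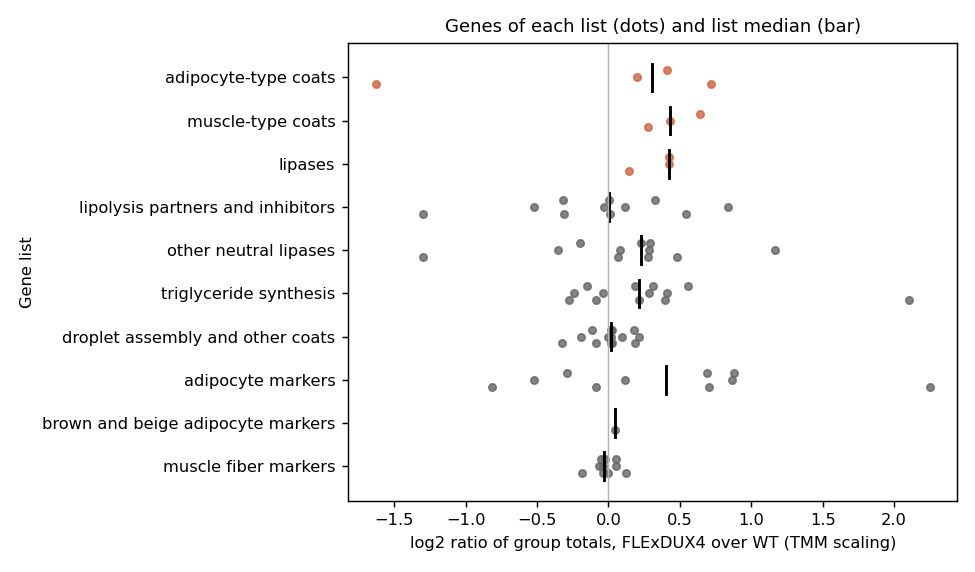
Log2 ratio of the group totals, FLExDUX4 over WT under TMM scaling, for the genes compared in each list (dots) with the list median (bar), and the members in orange. The medians are 0.30, 0.43 and 0.42 for the coats and lipases, 0.40 for adipocyte markers, 0.02 for droplet assembly and -0.03 for muscle fiber markers.

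Markers of muscle fibers and fat cells were measured in the same libraries. The labelled tissue had the RNA of skeletal muscle: the 10 muscle fiber markers summed to 111048 CPM in FLExDUX4 and 111424 CPM in WT muscle, with a median log2 ratio of -0.03. Of these, 3 were higher and 7 lower, with an interval above 0 for 3 (20.5% of all genes) and below 0 for 5 (20.6%), though these intervals are narrow at such high counts, and ratios ran from -0.19 for Myh1 to 0.12 for Actn3. Acta1 and Ckm were both at 0.05. With spike-in scaling all 10 muscle fiber markers were below 0, as were 10020 of the 13396 genes compared. The 10 adipocyte markers were all present in both genotypes and summed to 386 CPM in FLExDUX4 and 303 CPM in WT muscle. Of these, 6 were higher and 4 lower, 5 at least 1.5 times higher (13.2% of all genes compared) and 1 at least 1.5 times lower (13.5%), with a median of 0.40, and ratios ran from -0.82 for Lep to 2.25 for Acvr1c. The interval lay above 0 for 6 (20.5% of all genes) and below 0 for none (20.6%), and it held 0 for the 4 lower genes, Lep, Adrb3 (-0.52), Adig (-0.29) and Cebpa (-0.09). With spike-in scaling 5 were higher and 5 lower, where 25.2% of all genes were higher. On that scale 3 were at least 1.5 times higher (7.82% of all genes) and 2 at least 1.5 times lower (23.7%). There were 4 intervals above 0 (7.59% of all genes) and 3 below 0 (47.1%). Adipoq had a ratio of 0.70 (interval 0.46 to 0.95), Cfd of 0.88 (interval 0.76 to 0.99) and Fabp4, which capillaries express as well, of 0.11 (interval 0.05 to 0.18), which became -0.16 with spike-in scaling. Adipoq and Acvr1c are in pathway lists that the study drew from its sequencing data, as are Lpl (0.28) among the other lipases and Lpin1 (0.28) in triglyceride synthesis, so none of the 4 is independent evidence of a direction. Of the brown fat markers Ucp1 and Elovl3 had no counts, and Dio2 had 28 and 39. In bulk muscle, more fat cells and more RNA per fat cell cannot be told apart.

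The members were also set against Adipoq and Fabp4, 2 of the 10 adipocyte markers, chosen after the values were seen. Both were higher under TMM, and no member was set against a marker that was lower, so these ratios restate how each member compared with those 2 genes and not with fat cells at large. Per count of Adipoq, Plin4 had 7.94 counts in FLExDUX4 and 7.85 in WT muscle, a log2 change of 0.02 (interval -0.25 to 0.28). Per count of Fabp4, Plin4 had 0.797 and 0.523, a change of 0.61 (interval 0.49 to 0.72). The interval thus held 0 for the former marker and not for the latter. The same was so for Plin2, with changes of -0.07 (interval -0.44 to 0.30) per Adipoq and 0.52 (interval 0.24 to 0.80) per Fabp4. It was also so for Plin3, with -0.27 (interval -0.57 to 0.02) and 0.32 (interval 0.14 to 0.49), and for Lipe, with -0.28 (interval -0.60 to 0.03) and 0.31 (interval 0.10 to 0.51). Per Adipoq, Plin1 changed by -0.30 with 0 inside its interval (-0.72 to 0.13), and Cidec by -0.51 (interval -0.92 to -0.09). Per Fabp4 these were 0.29 (interval -0.06 to 0.64) and 0.08 (interval -0.26 to 0.42). Mgll and Plin5 were also lower per Adipoq, by -0.56 (interval -0.85 to -0.28) and -0.43 (interval -0.81 to -0.05), and their changes per Fabp4 were 0.03 (interval -0.13 to 0.18) and 0.16 (interval -0.14 to 0.45). Pnpla2 changed by -0.28 (interval -0.54 to -0.02) per Adipoq and by 0.31 (interval 0.20 to 0.42) per Fabp4. The part of fat cells in the ratios of the members was not tested.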

How the data were processed

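The authors trimmed QuantSeq reads with Cutadapt 1.16 and aligned them with STAR 2.5.3a to GRCm38 with ERCC and SIRV spike-in sequences. The submitters' processing notes also name featureCounts 1.6.2 and DESeq2. The deposited values used here are raw counts per gene, which the authors summed over the 3 mice of a genotype. The table also holds 6 columns of single libraries whose names match no sample label, and the authors' own normalized means, fold changes and p-values, and none of these were used.

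The group totals on mouse genes (13110125 and 18367364 counts) were scaled with edgeR 4.0.16 in R 4.3.3 (TMM, on 13396 genes that passed filterByExpr). A pseudocount of 0.5 entered each log2 ratio. Intervals (95% Clopper-Pearson or exact conditional, scipy 1.17.1 in Python 3.11.15) cover counting error only. The TMM scaling and the intervals of log2 ratios and of ratios between genes were checked first on simulated counts. Those counts held no variation between mice, and the other steps were not simulated. With 1 total per genotype no test was run. Counts of at most 3 were treated as the floor. Alternatives were RLE, upper quartile, gene totals, spike-in totals, other filters, a pseudocount of 2 and other groupings of the coats.

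The members and gene lists were chosen with earlier results of these data known. Named genes are the members, the highest and lowest gene of each list, and regulators and markers named by rule. Gene spans are from GENCODE M21 on GRCm38, given where the start equals the deposited start.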

Additional observations from a re-analysis of the deposited data

How the results depend on the processing

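No paired analysis was possible because the 6 columns of single libraries match no sample label and were not used, so analysis across mice, with replicates left out in turn, was not done here. RLE, upper quartile, TMM over other gene sets and a pseudocount of 2 left every member's log2 ratio within its counting interval. The call of Mgll as above 0 by its counting interval was still lost with upper quartile scaling and with TMM over other gene sets. Spike-in totals moved the ratios to 0.36 for Plin2, 0.16 for Plin3, 0.44 for Plin4, 0.15 for both Pnpla2 (0.147) and Lipe (0.146), and turned Mgll to -0.13, since they shift every gene by -0.28. The cause of that shift was not tested. The number of members at least 1.5 times higher went from 2 to 0 with spike-in totals and to 7 when called by the counting interval, and the number lower from 1 to 0 by the interval. The balance of adipocyte-type over muscle-type coats (log2 0.22) turned to -0.38 with Plin4 as a muscle-type coat, -0.19 (-0.195) without Plin4 and -0.13 (-0.128) by the medians, and was 0.20 without Plin3, where its interval held 0.

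With Plin4 out of the denominator, the shares of the coats in FLExDUX4 and WT muscle became 10.3% (10.31) and 10.3% (10.27) for Plin1, 10.2% and 11.8% for Cidec, 17.5% and 14.9% for Plin2, 47.6% and 46.6% for Plin3, and 14.2% and 15.5% for Plin5. For Cidea they were 0.223% and 1.03%, on 3 and 15 counts. Without Mgll, Pnpla2 held 83.3% (83.34) and 83.3% (83.33) of lipase counts. The share of all genes at least 1.5 times higher (13.2%) was 21.0% with no filter, 11.3% where each total had 10 or more counts, 3.79% where it had 100 or more, and 7.82% with spike-in totals. For genes lower (13.5%) these were 24.8%, 8.39%, 1.27% and 23.7%. List medians under spike-in totals were -0.27 for lipolysis partners, -0.26 for droplet assembly and -0.31 for muscle fiber markers, those of other neutral lipases (0.23) and triglyceride synthesis (0.21) turned to -0.05 and -0.066, and muscle fiber markers were at -0.061 with gene totals. Depth limits Cidea most, with 18 counts in all.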
